A study of Homo sapiens with 6 samples.

Results

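Long noncoding RNAs are transcripts that work as RNA rather than through a protein. The 8 described here were MALAT1, NEAT1, NORAD, TUG1, PVT1, KCNQ1OT1, MIR22HG and CYTOR, taken by gene name from a table of 58735 genes measured in MDA-MB-231, a human basal-like breast cancer line derived from a metastatic breast adenocarcinoma. All 8 names matched a single row each, 7 of the 8 averaged at least 1 FPKM, and KCNQ1OT1 lay below that level. FPKM counts the fragments of a gene per kilobase of its annotated length, scaled to the size of the library. Of the 12128 genes that averaged 1 FPKM or more, 767 were annotated as long noncoding RNAs.

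The 6 libraries came from cells exposed to 0 Gy (3 libraries) or 10 Gy (3 libraries) of 137Cs gamma radiation, with RNA collected at 24 h. Their columns carry the name SCR, which the study uses for the line with a non-targeting shRNA, while the genotype label of every sample reads WT, so the vector, if present, was shared by both doses. Nothing in the sources says that replicates were separate cultures, and the p-values given here measure the spread between these libraries, which may be technical. Libraries were made by poly(A) enrichment, which keeps transcripts that end in, or contain, a stretch of adenines. Between 15643641 and 28861781 reads were recovered per library. All 10 genes listed for MDA-MB-231, such as VIM and AXL, averaged at least 1 FPKM, and 6 of 10 luminal epithelial genes did so as well, among them KRT18 (109 FPKM at 0 Gy), KRT8 (95.0 FPKM) and KRT19 (90.9 FPKM), with ERBB2, GATA3 and EPCAM at 7.08, 3.05 and 1.44 FPKM. The hormone receptor gene PGR was at 0 in every library and ESR1 averaged 0.00872 FPKM at 0 Gy. Values after ± are SD over 3 libraries unless named otherwise, and "higher" or "lower" is used of a gene only at a Benjamini-Hochberg adjusted p under 0.05 in limma, fitted over all 12128 genes.

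These RNAs differ in where they act. MALAT1 and NEAT1 are nuclear RNAs encoded side by side on chromosome 11. MALAT1 gathers in nuclear speckles, which hold splicing factors, and NEAT1 is the scaffold on which paraspeckles assemble. NORAD is mainly cytoplasmic and binds PUMILIO proteins, which otherwise repress their target mRNAs, and it is known for its link to genome stability after DNA damage. TUG1 is found in nucleus and cytoplasm, PVT1 is transcribed next to the oncogene MYC, KCNQ1OT1 silences an imprinted gene cluster, MIR22HG is the host transcript of miR-22, and CYTOR is a cytoplasmic RNA linked to cell migration. Several of the 8 are described in the literature as responsive to cellular stress, including DNA damage.

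Sequence features that bear on how these RNAs work or are captured were read from the longest GENCODE 29 transcript of each gene (for the RNAs) and from RefSeq (for the miRNA and promoters). NORAD is encoded on chromosome 20 (chr20:36045622-36050960, GRCh38, minus strand) as 1 exon of 5339 bases, and it held 15 copies of the PUMILIO recognition sequence, searched as TGTANATA on the transcript strand. This is 2.81 sites per kilobase, against a median of 0 over 2727 long noncoding RNAs of at least 2000 bases, of which 25.8% held a site at all and 3, NORAD included, held as many per kilobase. In 3 places the starts of a pair of sites lay 9 bases apart. Those pairs are shown because NORAD had the most sites per kilobase of the 8 RNAs, with the sites in capitals and 6 bases on either side. Pairs were looked for in NORAD alone.
NORAD bases 1436 to 1464: tatctgTGTATATAgTGTACATAaaggac
NORAD bases 2633 to 2661: ctatacTGTATATAtTGTATATAtaacgg
NORAD bases 3269 to 3297: gtgctgTGTATATAgTGTATATAagcgga
The search for single TGTANATA sites found 6 in NEAT1, 2 in TUG1 and 9 in the much longer KCNQ1OT1, and none in MALAT1, PVT1, MIR22HG or CYTOR.

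MALAT1 (chr11:65497688-65506516, plus strand) has no ordinary poly(A) tail: its 3′ end is made by cleavage and is protected by U-rich stretches that fold against a genome-encoded run of A. That stretch is shown, written as DNA from base 8268 to base 8349 of the longest annotated transcript (8708 bases), because it bears on capture by poly(A) enrichment. The first U-rich motif and the A run of 13 bases are in capitals.
MALAT1 3′ stretch: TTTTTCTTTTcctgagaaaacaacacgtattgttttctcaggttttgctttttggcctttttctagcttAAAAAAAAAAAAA
The longest run of A was 22 bases in NEAT1, 18 in TUG1, 29 in KCNQ1OT1, 13 in CYTOR, 10 in NORAD, 7 in MIR22HG and 6 in PVT1.

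MIR22HG (chr17:1711493-1717174, minus strand) carries both mature forms of miR-22, which are shown with the seed, bases 2 to 8, in capitals. They come from chr17:1713914-1713935 and chr17:1713952-1713973 of GRCh38.p14, both on the minus strand.
hsa-miR-22-3p: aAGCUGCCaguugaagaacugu
hsa-miR-22-5p: aGUUCUUCaguggcaagcuuua
The seeds differ. The miRNA itself is too short for these libraries, and the row of the MIR22 gene was listed at 0 in all 6 of them, so its level was not measured here.

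At the level of the whole set, 3 of the 7 RNAs tested were higher at 10 Gy (MALAT1, NEAT1 and TUG1), 1 was lower (CYTOR), and NORAD, PVT1 and MIR22HG did not pass the test. Over all 12128 genes, 11.9% were higher and 23.7% lower at the same threshold, 35.6% in all. Among the 767 long noncoding RNAs, 11.6% were higher and 9.39% lower. The median log2 fold change was 0.13 over the 7 RNAs, 0.03 over the 767 and -0.04 over all genes. At the study's 1.3-fold threshold, with the same adjusted p, 2.82% of all genes were higher and 2.95% lower, and of the 7 RNAs MALAT1 alone met it on the log2(FPKM + 1) scale. Because the values are scaled per library, the direction of small changes rests on that scaling. With TPM in place of the deposited FPKM the median of all genes moved to 0.11, and 76.9% of calls were higher in place of 33.4%. The FPKM of a library sum to 246920 to 278380, below the fixed total of TPM, so TPM values are larger. The filter at 1 and the added 1 thus act more weakly with TPM, with 16391 genes tested in place of 12128. These parts of the difference were not separated. Upper quartile and median of ratios scaling stayed close to the deposited values, with medians of -0.04 and -0.03 and 32.2% and 35.1% of calls higher. On the TPM scale 4 of the RNAs were higher (MALAT1, NEAT1, TUG1 and PVT1) and 0 lower, against 19.7% and 5.93% of the 16391 genes tested there. On the deposited scale all 10 Gy libraries lay above all controls for the same 4 RNAs and below them for CYTOR, which was so for 19.1% and 32.8% of all genes tested.

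MALAT1 had the largest log2 fold change of the 7. It measured 11.8, 12.2 and 20.0 FPKM at 0 Gy and 26.9, 29.9 and 20.8 FPKM at 10 Gy. The third control library was far above the other controls and the third irradiated library below the other irradiated ones, and these libraries nearly met at 20.0 and 20.8 FPKM, with no overlap between the doses. The means were 14.7 ± 4.62 and 25.9 ± 4.62 FPKM, a ratio of 1.76, and the log2 fold change of log2(FPKM + 1) was 0.80 (SE 0.21, adjusted p = 0.022). By this log2 fold change MALAT1 had the 10th largest rise among the 767 long noncoding RNAs, and 0.421% of all genes tested had a larger one. The rank depends on the added 1 FPKM, which weighs more on less abundant genes. For example, AC107959.3 (2.97 to 5.68 FPKM) and AC025580.1 (0.984 to 2.33 FPKM) ranked below MALAT1 but had larger ratios of means. A rank by ratio was not taken. Leaving out 1 library at a time gave MALAT1 log2 fold changes of 0.67 to 1.03. The call was kept in 2 of 6 cases, those without replicate 3 of either dose, with an adjusted p of up to 0.076. MALAT1 rested on 1656 to 7111 reads per library, so counting error is small beside the spread between libraries.

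NEAT1 (chr11:65422774-65445540, plus strand) measured 10.0, 10.2 and 12.2 FPKM at 0 Gy and 14.5, 15.2 and 13.0 FPKM at 10 Gy. As for MALAT1, the third control was the highest control and the third irradiated library the lowest irradiated one, without overlap. The means were 10.8 ± 1.19 and 14.2 ± 1.14 FPKM, a ratio of 1.32, and the log2 fold change was 0.37 (SE 0.082, adjusted p = 0.013). The call was lost without the second 10 Gy library (adjusted p = 0.051) and with no filter on low genes (adjusted p = 0.060). The table gives NEAT1 a single row, so its short and long isoforms, of which the long one builds paraspeckles, cannot be told apart here. MALAT1 stood at 1.18, 1.19 and 1.64 times the FPKM of NEAT1 in the 0 Gy libraries and at 1.86, 1.96 and 1.60 times in the 10 Gy libraries, so that this ratio overlapped between the doses.

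FRMD8, the expressed protein-coding gene 9.25 kb before NEAT1, was also higher at 10 Gy, from 11.7 ± 0.483 to 13.1 ± 0.443 FPKM (log2 fold change 0.14, adjusted p = 0.034). The 3 genes that overlap MALAT1 and the 4 that overlap NEAT1 were listed at 0 in every library, and how reads that overlap 2 genes were assigned is not given in the sources used here.

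TUG1 (chr22:30969245-30979395, plus strand) was the most even of the 3 RNAs that rose. It measured 12.1, 14.1 and 13.2 FPKM at 0 Gy and 16.9, 16.6 and 16.4 FPKM at 10 Gy, with all irradiated libraries above all controls. The means were 13.1 ± 1.04 and 16.7 ± 0.250 FPKM, a ratio of 1.27, and the log2 fold change was 0.32 (SE 0.054, adjusted p = 0.0046). It was called in all 17 alternatives tried, with a log2 fold change of 0.27 to 0.47. TUG1 shares a bidirectional promoter with MORC2, a chromatin-compacting ATPase that is transcribed the other way from 0.947 kb away, and MORC2 was at 8.48 ± 0.0969 and 8.08 ± 0.384 FPKM and was not called (log2 fold change -0.06, adjusted p = 0.27). SMTN, the next gene on the other side, was lower (14.4 ± 0.404 to 12.0 ± 0.151 FPKM, log2 fold change -0.23, adjusted p = 0.0027).

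**Figure D1:**
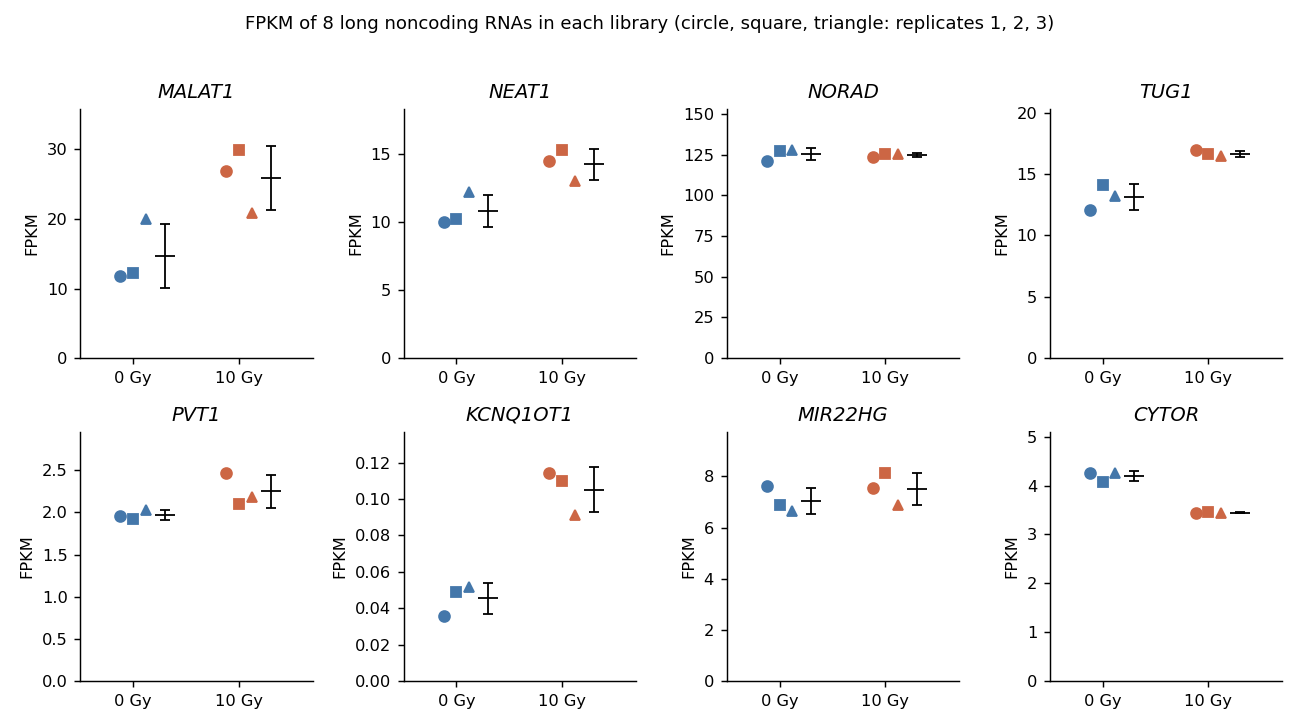
FPKM of each of the 8 RNAs in the 3 libraries at 0 Gy (blue) and the 3 at 10 Gy (orange), with the mean and SD in black; every vertical axis starts at 0. The doses do not overlap for MALAT1, NEAT1, TUG1, PVT1, KCNQ1OT1 or CYTOR, and overlap for NORAD and MIR22HG.

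NORAD was the most abundant of the 767 long noncoding RNAs by mean FPKM, and its libraries overlapped between the doses. It measured 121, 127 and 128 FPKM at 0 Gy and 123, 125 and 125 FPKM at 10 Gy, with the irradiated values inside the range of the controls. The means were 125 ± 3.59 and 125 ± 1.12 FPKM, and the log2 fold change was -0.01 (SE 0.033, adjusted p = 0.89). It was not called in any alternative, but the sign of this difference depends on the scale. As a share of all reads NORAD took 0.0629, 0.0668 and 0.0675% at 0 Gy and 0.0683, 0.0696 and 0.0688% at 10 Gy, which do not overlap, and the TPM fit gave 0.12 (adjusted p = 0.058), close to the median of all genes on that scale, while upper quartile and median of ratios scaling gave adjusted p = 0.81 and 0.99. The denominators behind the deposited FPKM were 0.973 to 0.991 times the reads recovered at 0 Gy and 1.03 to 1.04 times at 10 Gy, which lowers 10 Gy values relative to shares of reads. The nearest expressed genes, SCAND1 and EPB41L1, did not pass the test (log2 fold changes -0.18 and 0.15, adjusted p = 0.11 and 0.051).

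CYTOR (chr2:87454781-87636740, plus strand) was the only one of the 7 that was lower. It measured 4.26, 4.08 and 4.25 FPKM at 0 Gy and 3.43, 3.46 and 3.45 FPKM at 10 Gy, so that all irradiated libraries lay below all controls. The coefficient of variation was 2.43% at 0 Gy and 0.306% at 10 Gy, from 1109 to 1817 reads per library. The means were 4.20 ± 0.102 and 3.45 ± 0.0106 FPKM, a ratio of 0.821, and the log2 fold change was -0.22 (SE 0.042, adjusted p = 0.0070). With TPM it was -0.15 and not called (adjusted p = 0.070). It was called in 15 of 16 alternatives that gave a value. The nearest expressed coding genes, RMND5A and KRCC1, were not called (log2 fold changes 0.16 and 0.20, adjusted p = 0.053 and 0.11).

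CYTOR shares part of its sequence with MIR4435-2HG, elsewhere on chromosome 2, so its reads may be shared out between the 2 rows. Of all 31-base words in the 38 CYTOR transcripts, 18.7% also occur in the 25 transcripts of MIR4435-2HG, and the share per transcript ran from 0 to 94.2% with a median of 42.8%. MIR4435-2HG measured 4.65, 4.68 and 4.83 FPKM at 0 Gy and 4.20, 3.84 and 4.20 FPKM at 10 Gy, and it was lower as well (log2 fold change -0.17, SE 0.047, adjusted p = 0.027). It lost this call with TPM and with no filter on low genes. Because of the shared sequence, the values of both rows are uncertain as levels of either gene. Their promoters share 241 bases in a row, from the first base of the 300-base CYTOR window on.

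Promoter windows, 250 bases before to 50 after the start in RefSeq on GRCh38.p14, were found for 5 of the 8 RNAs (MALAT1, NORAD, TUG1, MIR22HG and CYTOR) and are shown for a pair that rose and for CYTOR, which fell. They were searched on both strands for TGAGTCA (the AP-1 site), its extension TGAGTCAGC (as in Maf-type sites, which include that of MAFF, the factor the study is about), CACGTG (the E-box), CCAAT (the CCAAT box) and GGGCGG (the GC box), and matches are in capitals. Among all 35116 windows of this length, 4.95% held TGAGTCA, 0.461% TGAGTCAGC, 7.26% CACGTG, 34.6% CCAAT and 45.0% GGGCGG.
MALAT1, chr11:65497488-65497787, plus strand: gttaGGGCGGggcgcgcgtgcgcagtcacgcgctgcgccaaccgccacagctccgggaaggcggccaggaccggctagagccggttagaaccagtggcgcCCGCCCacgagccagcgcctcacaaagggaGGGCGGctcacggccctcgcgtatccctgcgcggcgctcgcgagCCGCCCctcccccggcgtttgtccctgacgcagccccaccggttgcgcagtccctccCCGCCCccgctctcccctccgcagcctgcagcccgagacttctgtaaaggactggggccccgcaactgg
TUG1, chr22:30969015-30969314, plus strand: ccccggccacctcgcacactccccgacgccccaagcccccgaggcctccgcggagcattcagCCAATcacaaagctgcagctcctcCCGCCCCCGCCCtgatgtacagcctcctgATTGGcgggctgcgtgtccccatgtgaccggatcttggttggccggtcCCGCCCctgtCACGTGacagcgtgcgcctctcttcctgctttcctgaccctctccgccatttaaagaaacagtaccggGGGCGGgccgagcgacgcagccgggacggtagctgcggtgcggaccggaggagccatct
CYTOR, chr2:87455177-87455476, plus strand: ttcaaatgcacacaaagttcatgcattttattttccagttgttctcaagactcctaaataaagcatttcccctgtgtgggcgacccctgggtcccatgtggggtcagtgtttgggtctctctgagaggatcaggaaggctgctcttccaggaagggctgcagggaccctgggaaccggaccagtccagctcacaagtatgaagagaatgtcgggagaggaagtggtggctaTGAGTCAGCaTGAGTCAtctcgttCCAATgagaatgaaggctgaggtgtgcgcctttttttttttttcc
The CYTOR window held TGAGTCA at 2 places, 1 of them as TGAGTCAGC, together with 1 CCAAT, and the MIR4435-2HG window held the TGAGTCAGC. The MALAT1 window held 5 copies of GGGCGG and none of the others, and a further MALAT1 window in the table, for a start inside the gene, held none of the 5 motifs. The TUG1 window held 4 GGGCGG, 2 CCAAT and 1 CACGTG. Windows of RNAs that were not called held the same motifs: NORAD 1 CACGTG, and MIR22HG 2 CCAAT and 3 GGGCGG. A match is a description of letters in a window and not evidence of binding. In these libraries MAFF went from 16.7 ± 0.876 to 14.1 ± 0.221 FPKM (log2 fold change -0.23, adjusted p = 0.0067).

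**Figure D2:**
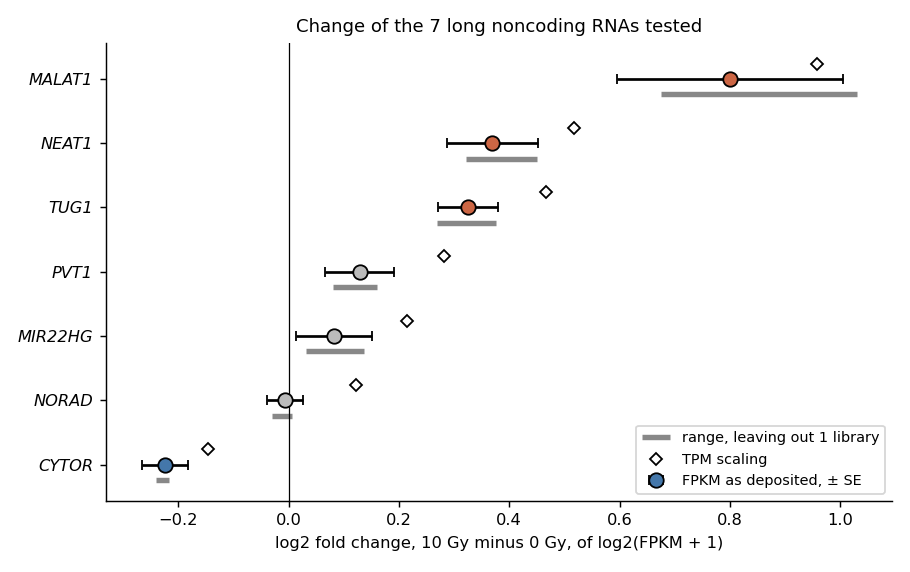
Log2 fold change at 10 Gy against 0 Gy of the 7 RNAs tested: circles with SE bars are the deposited FPKM (orange higher, blue lower, grey not called), grey bars the range when 1 library is left out, and diamonds TPM scaling. MALAT1 has the widest range (0.67 to 1.03), NORAD sits at -0.01 and moves to 0.12 under TPM, and CYTOR stays below 0.

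PVT1 lies on chromosome 8, 53.1 kb from MYC. It measured 1.95, 1.92 and 2.03 FPKM at 0 Gy and 2.47, 2.10 and 2.18 FPKM at 10 Gy, from 162 to 405 reads per library. The irradiated libraries all lay above the controls, the first by the most and the second only just. The means were 1.97 ± 0.0590 and 2.25 ± 0.191 FPKM, a ratio of 1.14, and the difference did not pass the test (log2 fold change 0.13, SE 0.063, adjusted p = 0.15), except with TPM (0.28, adjusted p = 0.047). MYC itself was lower, from 64.6 ± 1.55 to 45.6 ± 1.26 FPKM (log2 fold change -0.49, SE 0.034, adjusted p = 4.4e-04). FAM49B, on the other side, was lower too (13.1 ± 0.600 to 11.5 ± 0.0736 FPKM, log2 fold change -0.17, adjusted p = 0.016). The difference between PVT1 and its neighbours was not tested.

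KCNQ1OT1 (chr11:2608328-2699994, minus strand) is an unspliced RNA of 91667 bases that runs against the KCNQ1 gene. At this length even a low FPKM rests on whole reads: 70, 69 and 102 reads at 0 Gy and 313, 184 and 181 reads at 10 Gy. In FPKM it measured 0.0358, 0.0490 and 0.0514 at 0 Gy and 0.114, 0.110 and 0.0912 at 10 Gy. All irradiated libraries were above all controls, the lowest of them by 1.78 times the highest control. The means were 0.0454 ± 0.00838 and 0.105 ± 0.0122 FPKM, a ratio of 2.32, the largest of the 8. It was outside the main test by its level. A two-sided exact permutation test over the 6 libraries gave p = 0.1, which is the smallest p that 3 against 3 can give. Fitted without a filter and with 0.1 FPKM added, its log2 fold change was 0.50 (SE 0.19, adjusted p = 0.19), and 3.79% of the 31650 genes in that fit were higher. The added 0.1 FPKM is above the 0 Gy mean of KCNQ1OT1 and near its 10 Gy mean, so 0.50 understates the ratio of 2.32. Of the 6869 genes under 1 FPKM with a value above 0 in every library, 19.9% had all 10 Gy libraries above all controls.

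KCNQ1, on the opposite strand of the same region, had 0, 0 and 0 reads at 0 Gy and 0, 2 and 3 reads at 10 Gy. It was at or under a floor of 3 reads in every library. Whether the counting used strand is not given in the sources used here. The list of genes in or near this imprinted domain had 8 members tested, of which 0 were higher and 4 lower (median log2 fold change -0.16). Over all genes 11.9% were higher and 23.7% lower. With TPM 2 of the list were higher and 0 lower, against 19.7% and 5.93% of all genes tested there. With no filter on low genes 0 of the list were higher and 2 lower, against 1097 and 1815 of 31650 genes. CDKN1C, a cyclin-dependent kinase inhibitor of that domain, was lower (2.43 ± 0.191 to 1.90 ± 0.178 FPKM, log2 fold change -0.24, adjusted p = 0.037), as were TSSC4 (-0.25), CARS (-0.17) and NAP1L4 (-0.17).

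MIR22HG measured 7.63, 6.86 and 6.63 FPKM at 0 Gy and 7.55, 8.13 and 6.88 FPKM at 10 Gy. The doses overlapped, with the highest control above 2 of the 3 irradiated libraries. The means were 7.04 ± 0.523 and 7.52 ± 0.623 FPKM, a ratio of 1.07, and the log2 fold change was 0.08 (SE 0.069, adjusted p = 0.38). WDR81, which overlaps it on the other strand, was higher (3.17 ± 0.148 to 3.88 ± 0.116 FPKM, log2 fold change 0.23, adjusted p = 0.012). The expressed genes on either side, PRPF8 and SMYD4, were not called (log2 fold changes 0.11 and 0.09).

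The order of the levels was the same at both doses: NORAD, MALAT1, TUG1, NEAT1, MIR22HG, CYTOR, PVT1 and KCNQ1OT1 by mean FPKM, a scale per length of gene. NORAD was 8.53 times the level of MALAT1 at 0 Gy and 4.82 times at 10 Gy. At 0 Gy the libraries of MALAT1 and TUG1 overlapped, as did those of TUG1 and NEAT1, and the other neighbours in the order did not, while at 10 Gy no neighbours overlapped. This order rests on the lengths used. The deposited length is the union of all annotated exons of a gene, which exceeds the median annotated transcript 24.1-fold for CYTOR, 18.4-fold for MALAT1, 10.6-fold for PVT1, 7.23-fold for NEAT1, 5.11-fold for MIR22HG and 2.41-fold for TUG1, and equals it for NORAD and KCNQ1OT1. Per kilobase of the median transcript, MALAT1 came first with 270 ± 84.9 at 0 Gy and 476 ± 84.9 at 10 Gy in units of FPKM, NORAD stayed at 125 at both doses, and CYTOR stood at 101 ± 2.46 and 83.0 ± 0.254. Which isoforms these cells use was not measured. The ratio of the means between doses does not depend on the length, whereas log2(FPKM + 1) values and the 1 FPKM filter do.

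**Figure D3:**
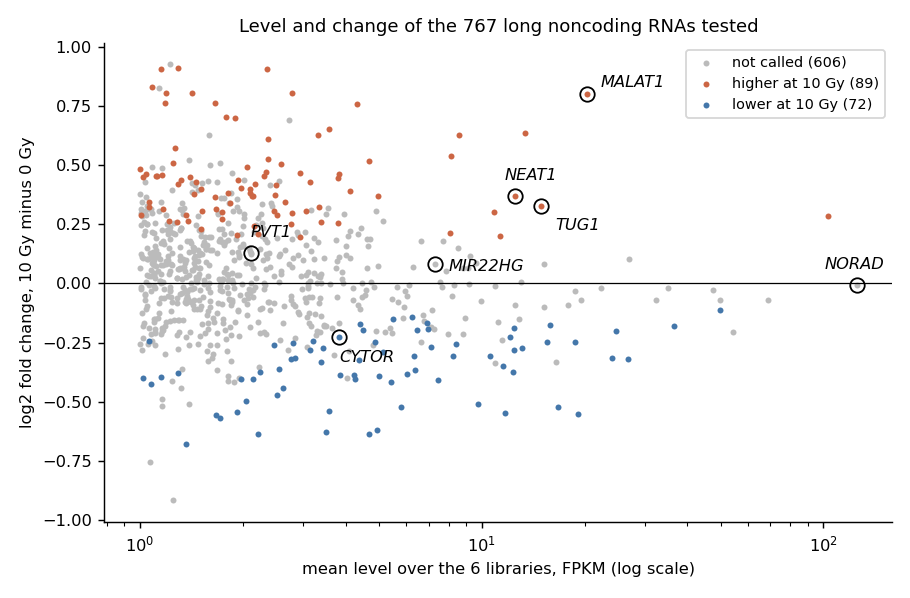
Each point is one of the 767 long noncoding RNAs tested, by its mean FPKM over the 6 libraries (log axis) and its log2 fold change at 10 Gy against 0 Gy; orange is higher (89), blue lower (72) and grey not called (606), and the 7 RNAs are circled. NORAD is at the far right on the 0 line, and MALAT1 lies among the largest rises.

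As a share of all reads, the 8 RNAs together took 0.118, 0.125 and 0.137% at 0 Gy and 0.156, 0.162 and 0.146% at 10 Gy. Other long noncoding RNAs moved the same way: without the 8, they took 0.681, 0.683 and 0.711% of reads at 0 Gy and 0.762, 0.766 and 0.749% at 10 Gy. Genes annotated as sense-intronic, whose reads can come from unspliced transcripts, took 0.0277, 0.0292 and 0.0308% at 0 Gy and 0.0334, 0.0341 and 0.0324% at 10 Gy. With every library thinned to the same number of reads, 22213, 22169 and 22914 genes were above 0 at 0 Gy and 24438, 24503 and 23966 at 10 Gy. In each of these measures the third control was the highest control and the third irradiated library the lowest irradiated one, the same order as for MALAT1 and NEAT1. Their part in the changes of the 8 RNAs was not tested.

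**Figure D4:**
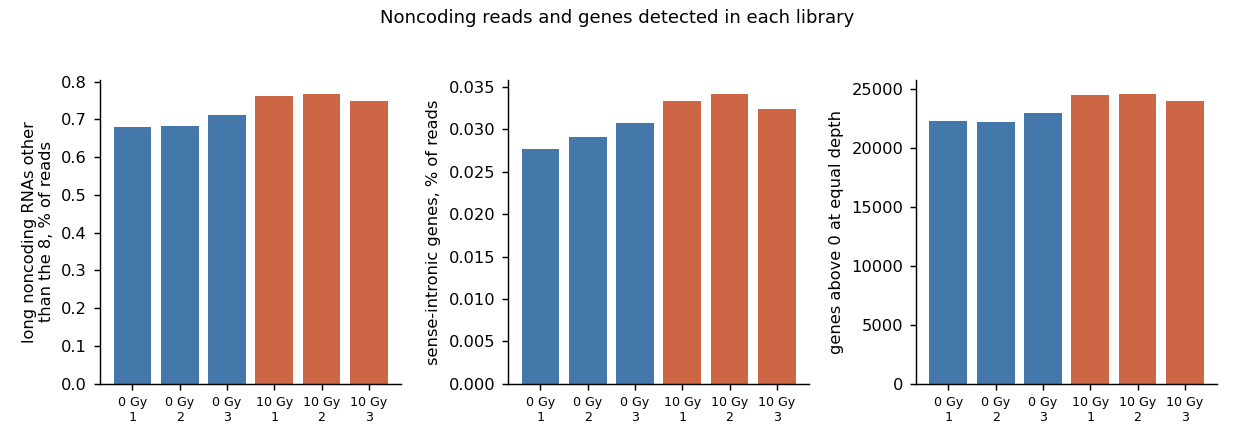
Share of reads in long noncoding RNAs other than the 8 (left), in sense-intronic genes (middle), and the number of genes above 0 after thinning to equal depth (right), as 1 bar for each library from replicate 1 to 3 at 0 Gy (blue) and 10 Gy (orange). All axes start at 0, and in each panel all 10 Gy libraries lie above all 0 Gy libraries.

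Because MALAT1 lacks a poly(A) tail, other transcripts known to lack 1 were listed beside it, mainly histone mRNAs and small noncoding RNAs. Of the 22 in the table, 10 were at 0 in all libraries and 5 were tested, with 0 higher and 3 lower (median log2 fold change -0.38). The 3 were the histone genes HIST1H1E (4.57 ± 0.995 to 2.46 ± 0.617 FPKM, log2 fold change -0.69), HIST2H2AC (2.75 ± 0.542 to 1.51 ± 0.662 FPKM, -0.60) and HIST1H1C (46.7 ± 5.91 to 35.5 ± 2.14 FPKM, -0.38). With TPM 1 was lower, and with no filter on low genes 0 were lower, against 1815 of the 31650 genes tested there. HIST1H1E rested on 29 to 93 reads per library and HIST2H2AC on 7 to 26. HIST1H3B (2.73 ± 1.04 and 1.89 ± 0.253 FPKM) and RN7SL2, a copy of the signal recognition particle RNA (669 ± 70.9 and 603 ± 60.3 FPKM), were not called. The part of poly(A) capture in the change of MALAT1 was not tested.

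Counts for transcripts of the proteins that gather in paraspeckles and speckles, as for all lists here, are to be read against the shares over all genes. These were 11.9% higher and 23.7% lower, and with TPM 19.7% and 5.93%. With no filter on low genes, 1097 of 31650 genes were higher and 1815 lower. Of 18 paraspeckle proteins tested, 0 were higher and 12 lower, with a median log2 fold change of -0.14, as with upper quartile and median of ratios scaling, but with TPM 1 was higher and 1 lower. The largest falls were in the RNA-binding proteins CIRBP (20.6 ± 1.16 to 17.1 ± 0.239 FPKM, log2 fold change -0.25), TAF15 (-0.22) and DAZAP1 (-0.20), and NONO, a core paraspeckle protein that binds NEAT1, was lower by less (112 ± 1.27 to 104 ± 1.86 FPKM, -0.10, adjusted p = 0.031). Of 15 nuclear speckle proteins, 1 was higher and 7 lower (median -0.11), and with TPM 4 were higher and 2 lower. SON, the core scaffold protein of speckles, was the 1 that was higher (24.2 ± 1.81 to 27.3 ± 0.247 FPKM, log2 fold change 0.17, adjusted p = 0.042). With no filter on low genes 0 of this list were higher and 6 lower. The splicing factors SRSF3 (61.9 ± 2.57 to 50.5 ± 0.818 FPKM, -0.29), SRSF7 (-0.23) and SRSF2 (-0.23) had the largest falls.

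Of 12 PUMILIO and NORAD-linked proteins tested, 2 were higher and 4 lower (median -0.08), and with TPM 3 were higher and 2 lower. With no filter on low genes 1 was higher and 4 lower. CNOT1, the scaffold of the deadenylase complex that PUMILIO proteins recruit, was higher (18.7 ± 2.00 to 22.1 ± 0.593 FPKM, log2 fold change 0.23, adjusted p = 0.040), and so was TOP1, topoisomerase I (0.20, adjusted p = 0.0037). The cohesin subunit SMC3 (-0.31), the splicing protein PRPF19 (-0.30) and the export adaptor ALYREF (-0.19) had the largest falls. The nuclear RNA decay list, factors that degrade or retain unstable nuclear RNAs, had 13 members tested with 1 higher and 6 lower (median -0.11), and with TPM 2 higher and 2 lower. With no filter on low genes this list had 0 higher and 4 lower. Its largest falls were in PABPN1, the nuclear poly(A)-binding protein (23.5 ± 1.28 to 18.5 ± 0.516 FPKM, log2 fold change -0.33), in the exosome subunit EXOSC3 (-0.30) and in SRRT (-0.20), and ZFC3H1, which retains polyadenylated RNA in the nucleus, was higher (8.76 ± 0.625 to 10.1 ± 0.169 FPKM, 0.19, adjusted p = 0.028).

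**Figure D5:**
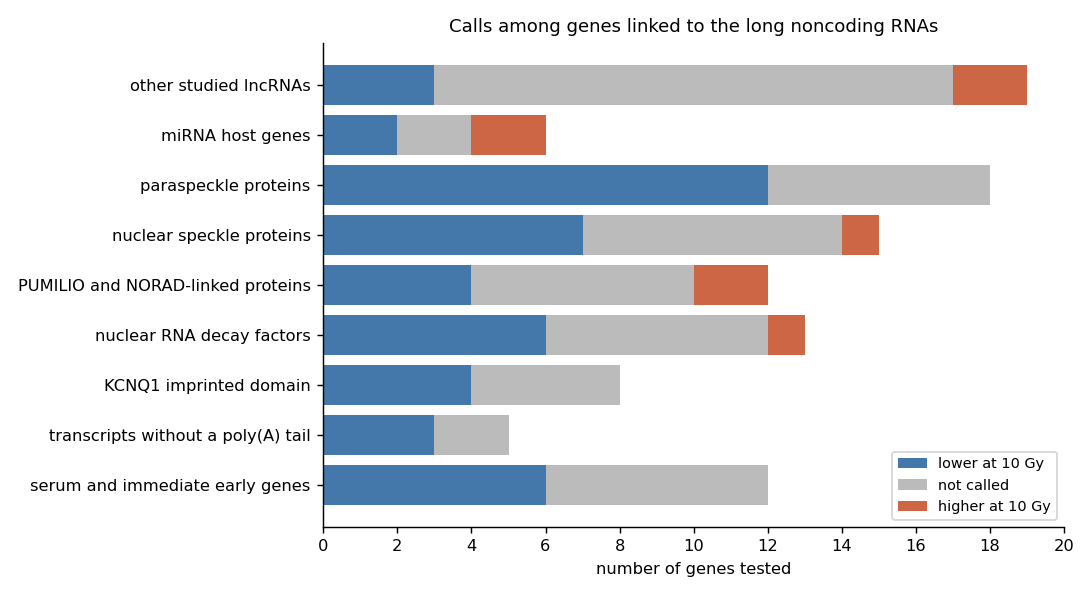
Number of genes tested in each of the 9 lists shown, linked to the long noncoding RNAs, split into lower at 10 Gy (blue), not called (grey) and higher (orange), on the deposited FPKM scale. Paraspeckle proteins had 12 of 18 lower and 0 higher; under TPM scaling 1 was lower and 1 higher.

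Other long noncoding RNAs that are often studied had 19 members tested, of which 2 were higher and 3 lower (median -0.03), and with TPM 5 were higher and 1 lower. HCP5, transcribed within the major histocompatibility region (0.961 ± 0.0231 to 1.62 ± 0.141 FPKM, log2 fold change 0.42, adjusted p = 0.0044), and GABPB1-AS1 (1.56 ± 0.0520 to 2.38 ± 0.161 FPKM, 0.40, adjusted p = 0.0032) were higher. DANCR, a snoRNA host, was lower (26.8 ± 0.701 to 21.4 ± 0.863 FPKM, -0.32, adjusted p = 0.0016), with FGD5-AS1 (-0.18) and THAP9-AS1 (-0.17). GAS5, a snoRNA host that is abundant in arrested cells, was at 50.9 ± 0.502 and 48.5 ± 1.45 FPKM and was not called. Of 6 miRNA host genes tested beside MIR22HG, 2 were higher and 2 lower (median -0.08), and with TPM 2 were higher and 0 lower. With no filter on low genes 2 were higher and 0 lower as well. MIR3142HG, which hosts miR-146a, had the largest rise (6.43 ± 0.0250 to 9.82 ± 1.12 FPKM, log2 fold change 0.54, adjusted p = 0.0020), followed by MIR210HG (1.70 ± 0.365 to 2.50 ± 0.323 FPKM, 0.38, adjusted p = 0.035), and MIR503HG (-0.23) and MIR4435-2HG (-0.17) were lower.

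Of 12 serum and immediate early genes, 0 were higher and 6 lower (median -0.15), against 11.9% and 23.7% of all genes. With TPM 2 were higher and 4 lower, against 19.7% and 5.93%. The largest falls were in CYR61 (763 ± 62.0 to 528 ± 27.6 FPKM, log2 fold change -0.53), MYC (-0.49) and KLF6 (-0.41).

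The genes whose log2(FPKM + 1) followed each RNA most closely over the 6 libraries are given as a description, since all points share the 2 doses. For MALAT1 these were SERAC1, MIR4701 and NEAT1 (Pearson r = 0.997, 0.995 and 0.995). For NEAT1 they were MALAT1, KMT2B and LTB4R (r = 0.995, 0.995 and 0.993). TUG1 was followed by AC137932.1, PXDN and RERE (r = 0.998, 0.995 and 0.995), and CYTOR by GLE1, ZC3H15 and MSANTD3 (r = 0.999, 0.999 and 0.998). The highest values were lower for NORAD (DMXL1, TMEM33 and DNAJC10, r = 0.982, 0.981 and 0.977) and MIR22HG (CLDN7, MIR589 and NET1, r = 0.982, 0.976 and 0.973), and for PVT1 they were STXBP2, CCL20 and AL049840.1 (r = 0.997, 0.992 and 0.989).

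NORAD was the only one of the 8 among the 5 long noncoding RNAs of highest mean FPKM. The next 4 were AC099850.3 (93.0 ± 5.20 to 113 ± 2.77 FPKM), which was higher (log2 fold change 0.29, adjusted p = 0.0041), SNHG5 (70.5 ± 7.18 to 66.9 ± 1.95 FPKM) and SNHG8 (58.4 ± 6.16 to 50.3 ± 2.49 FPKM), which were not called, and LRRC75A-AS1 (51.8 ± 0.774 to 47.8 ± 0.695 FPKM), which was lower (-0.11, adjusted p = 0.021). By the same measure TUG1 ranked 28th, NEAT1 34th, MALAT1 16th, MIR22HG 71st, CYTOR 151st and PVT1 317th of 767.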

How the data were processed

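Expression was measured by RNA-sequencing in 3 libraries at 0 Gy and 3 at 10 Gy from MDA-MB-231 cells, grouped by their titles. The authors deposited FPKM per gene, from paired-end poly(A) libraries, and per the labels reads were aligned with HISAT2 to GRCh38. The version, the read counter, the use of strand and the treatment of reads shared by several genes are not given in the sources used here. The deposited gene lengths equal the union of GENCODE 29 exons for 100% of 58735 genes. The FPKM values were multiplied by gene length and by a fitted depth to recover whole reads (100% whole within a tolerance of 0.01), which gave 15643641 to 28861781 reads per library. These depths leave KCNQ1OT1 on 69 to 313 reads in a library.

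Genes that averaged 1 FPKM or more were compared on log2(FPKM + 1) with limma 3.58.1 in R 4.3.3 (eBayes with intensity trend, Benjamini-Hochberg over all 12128 genes). On this scale the change of low genes is understated. KCNQ1OT1 was compared by a two-sided exact permutation test. Other pseudocounts, filters, scalings (TPM, upper quartile, median of ratios), eBayes settings, equal depth, the replicate number as a block and leaving out each library were tried. Sums, motif searches and figures used Python 3.11.15 and matplotlib 3.10.9, and the fit was tested on simulated data.

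The 8 RNAs and the gene lists were chosen with earlier results of these data known. Named genes were all 8 RNAs, in each list the called genes with the 3 largest rises and falls (all genes of at least 1 FPKM in lists of 5 or fewer), the nearest expressed coding gene on each side, the 3 genes that followed each RNA best, the 5 most abundant noncoding genes, MIR4435-2HG and MAFF. Some genes that this rule names, and a list, are not reported here. NONO, GAS5 and WDR81 were added after their values were seen. Sequences are from GENCODE 29 and RefSeq (GRCh38.p14).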

Additional observations from a re-analysis of the deposited data

How the results depend on the processing

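Of the 7 RNAs tested, TUG1 kept its call in all 17 alternatives, NEAT1 in 15 of 17 and CYTOR in 15 of 16, while MALAT1 kept its call in 10 of 17, with an adjusted p of up to 0.097. PVT1 and CYTOR have no value with a minimum of 5 FPKM. With no filter on low genes 2 of the 7 were called, 1 of them higher, and 1815 genes were lower in place of 2874. With a minimum of 5 FPKM 0 of the RNAs were lower, 874 genes were higher in place of 1443 and 408 passed 1.3-fold in place of 700, over 7262 genes tested. With TPM 0 of the RNAs were lower, 3232 genes were higher, 972 lower and 1528 passed 1.3-fold, over 16391 genes tested, 37 genes of the lists were called in place of 58, and NORAD turned to 0.12. A pseudocount of 0.1 FPKM gave 1059 genes at 1.3-fold, and the same without a filter, chosen after seeing the data, gave 1137, with 38 list genes called. Per kilobase of the median transcript, also chosen afterwards, 6 of 16 positions in the order of levels were kept.

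Leaving out 1 library at a time gave 2651 to 3975 genes called, 846 to 1388 higher and 1805 to 2621 lower, 2 to 4 of the RNAs called with 1 to 3 higher, and 35 to 60 list genes. The lowest counts came without 10 Gy replicate 2 (2651 genes, 2 of the RNAs, with NEAT1 and MALAT1 lost) and without 10 Gy replicate 1 (2711 genes, 38 list genes). NORAD, never called, ran from -0.031 to 0.0057 on the log2 scale and was above 0 without 0 Gy replicate 2 (0.0047), 0 Gy replicate 3 (0.0057) or 10 Gy replicate 1 (0.00066). The causes were not tested.

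Whether the replicate numbers pair the samples is not stated. Deviations from the group means correlated weakly between libraries of the same replicate number (-0.040, -0.035 and -0.10), which cannot settle it. With the number as a block 3503 genes were called, and TUG1, NEAT1 and CYTOR kept their calls. MALAT1, which kept its call in 10 of 17 alternatives, is not reported for this one. With 3 libraries a dose, a difference that missed the threshold is not shown to be absent.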

Other observations

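Among noncoding genes of any type, the 5 with the highest mean FPKM were not among the 8 RNAs. They were the mitochondrial ribosomal RNA MT-RNR2 (1621 ± 149 FPKM at 0 Gy and 1272 ± 177 FPKM at 10 Gy), which was lower in limma (log2 fold change -0.35, adjusted p = 0.044), the ribosomal protein pseudogene RPS28P7 (704 ± 43.8 and 570.3 ± 15.0 FPKM), which was lower (-0.30, adjusted p = 0.0068), the mitochondrial transfer RNA MT-TC (779.9 ± 21.2 and 450.2 ± 39.1 FPKM), which was lower (-0.79, adjusted p = 5.9e-04), and RN7SL2 and MT-RNR1, which were not called (-0.15 and 0.03, adjusted p = 0.27 and 0.80). RPS28P7 is a processed pseudogene, and reads may be shared between it and its parent gene.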
